A study of Mus musculus with 12 samples.

Results

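The 68 genes described here encode the classical ligands and receptors of axon guidance in the mouse: the ephrins and Eph receptors, the semaphorins with their plexin and neuropilin receptors, the Slits and their Robo receptors, and the netrins with Dcc and the Unc5 receptors. They were chosen by gene name from the table of gene counts, with 1 row per Ensembl gene, and are 68 of 40690 genes, 34 of them ligands and 34 receptors. Guidance ligands are displayed on cells or secreted into the tissue, and a growing axon turns towards or away from them according to the receptors on its growth cone. Ephrins are membrane-bound and signal on contact, and most semaphorins and Slits repel. Netrins attract through Dcc and repel when Unc5 receptors take part. In the embryonic brain these families steer thalamocortical, commissural and corticofugal axons and also act on migrating neurons and growing vessels.

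Polyadenylated RNA of brains from 12 embryos at embryonic day 14.5, of strain C57BL/6J, was sequenced in 2 experiments, to ask what altering the element called LC1 does to gene expression in the developing brain. The LC1 KO embryos (7, 22 and 71) lacked LC1 and were set against LC1 WT embryos (6, 26 and 73), and all 6 were female. The RKI homozygous embryos (A1, A10 and A18) carried on both alleles a human variant knocked in to the mouse genome, and were set against RKI WT embryos (A2, A9 and A16), with 1 female (A10 or A9) and 2 males per group. Litter and sex were matched between mutants and wild types, per the labels, without naming the litters, and the labels do not state how many founder lines were used. Counts per gene cannot show either alteration, and no check of genotype was made.

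Total counts per library were between 18192984 and 26566769, of which the 68 genes took 0.775% to 0.877%. Markers of the pallium, the subpallium and radial glia were present in every library. The hindbrain genes Hoxb2 and Hoxb3 had 0 counts in all 12 libraries, although the tissue is labelled as whole brain. En1 and En2, markers of the midbrain and the isthmus, had 0 counts in RKI WT embryo A16, against 4 to 44 counts of En1 and 5 to 26 of En2 in the other 11 embryos. Both come from a list of 18 midbrain and hindbrain genes. Of that list Gata2, Gata3, Tal1, Pax2, Lmx1b and Foxa2 also had their lowest count in embryo A16. Lmx1a (277 counts in A16), Pax5 (7) and Pax8 (5) did not. Embryo A16 also had the highest summed level of 10 proliferation genes, at 1381 CPM (counts scaled to a common library total), with the other embryos between 860 and 1084. Fold changes of named genes that moved by more than 1.5 times without embryo A16 are therefore also given without it.

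Nearly all of these genes were transcribed at this age. The RPKM scale divides counts by gene length and library total, so the order of genes depends on the length used for each. Lengths implied by the deposited values differed widely within families, with 15098 bases for Slit2 and 5929 for Slit1. In LC1 WT embryos Slit2 averaged 101 CPM and Slit1 141 CPM. On the RPKM scale, 62 of the 68 averaged 1 RPKM or more over the 12 libraries and 36 averaged 10 or more. The median gene of the set stood at 11.2 RPKM, against 5.92 RPKM for all 16002 genes that passed the filter on low counts. All 68 passed that filter. The plexins had the largest summed level of any family, 301 ± 13.2 RPKM (SD, n = 12), followed by the B ephrins at 174 ± 7.27 RPKM.

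**Figure D1:**
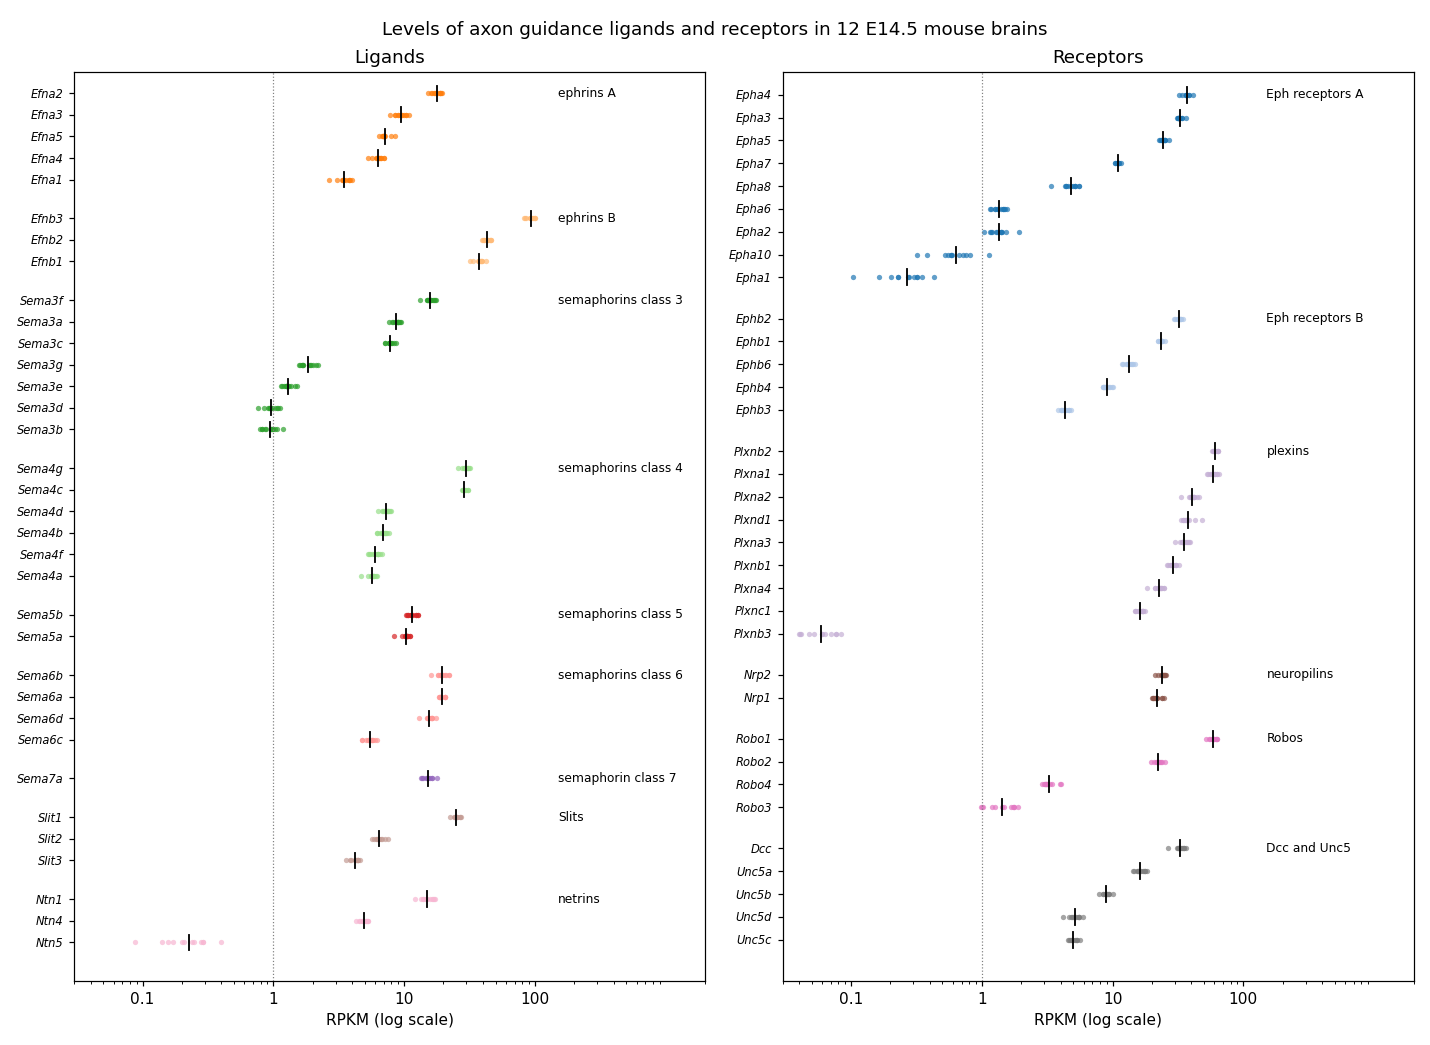
RPKM of each gene on a log scale, ligands on the left and receptors on the right, grouped by family; each point is 1 of 12 embryos and the black tick is their mean. Efnb3 is the highest at 93.0 RPKM, and Plxnb3 the lowest at 0.0593 RPKM.

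Among the membrane-bound ephrin ligands, the B ephrins, which have a cytoplasmic tail and can signal back into their own cell, were far above the A ephrins, which are held by a lipid anchor. Efnb3 was the most abundant of the 68 genes at 93.0 ± 6.27 RPKM, with libraries between 82.6 and 101 RPKM. Efnb2, which also marks arteries, averaged 43.1 ± 2.44 RPKM and Efnb1 averaged 37.6 ± 2.67 RPKM (SD, n = 12 each). The 5 A ephrins summed to 44.1 ± 2.23 RPKM. Efna2 led them at 17.7 ± 1.34 RPKM, followed by Efna3 at 9.41 ± 0.893 and Efna5 at 7.13 ± 0.559, and Efna1 was the lowest at 3.48 ± 0.371 RPKM. Efna3 and Efna5 did not overlap with Efna2 in any library.

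Of their receptors, the EphA family summed to 113 ± 3.92 RPKM and the EphB family to 82.2 ± 2.13 RPKM. Epha4, which binds both ephrin classes, led the family at 36.7 ± 2.33 RPKM, with Epha3 at 32.7 ± 1.53 and Epha5 at 24.4 ± 1.22 RPKM. The ranges of Epha4 and Epha3 over libraries overlapped. Epha1 was near the lower limit at 0.266 ± 0.0881 RPKM, which came from 9 to 31 counts per library. In the EphB family Ephb2 averaged 32.2 ± 1.43 RPKM, Ephb1 23.4 ± 0.806 RPKM and Ephb6, which has no kinase activity, 13.3 ± 0.897 RPKM. Ephb3 was the lowest at 4.31 ± 0.300 RPKM.

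The semaphorins were spread over 5 classes, with the transmembrane class 4 the highest at a summed 84.5 ± 3.03 RPKM. Sema4g at 29.7 ± 1.73 RPKM and Sema4c at 28.9 ± 0.996 RPKM had overlapping libraries and stood above Sema4d, a ligand of plexin B1, at 7.29 ± 0.468 RPKM. Sema4a was the lowest of the class at 5.67 ± 0.402 RPKM. In class 6, also transmembrane and bound by A plexins, Sema6b, Sema6a and Sema6d averaged 19.5 ± 1.73, 19.5 ± 0.877 and 15.6 ± 1.11 RPKM, and Sema6c averaged 5.47 ± 0.465 RPKM. The secreted class 3, whose members mostly act through neuropilins, summed to 37.4 ± 1.28 RPKM. Sema3f made up 15.8 ± 1.17 RPKM of it, Sema3a 8.73 ± 0.523 and Sema3c 7.81 ± 0.434, and Sema3b was the lowest at 0.945 ± 0.116 RPKM. Sema5b averaged 11.5 ± 0.889 RPKM, Sema5a 10.3 ± 0.731 and the lipid-anchored Sema7a 15.3 ± 1.26 RPKM.

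Plexins carry the semaphorin signal into the cell, and 8 of the 9 averaged more than 10 RPKM. Plxnb2 at 60.6 ± 2.25 RPKM and Plxna1 at 58.9 ± 3.77 RPKM could not be ranked beyond the spread of their libraries, and Plxna2 followed at 40.7 ± 3.17 RPKM. Before division by length Plxna2 was the higher, at 562 CPM in LC1 WT embryos, against 505 CPM for Plxna1 and 428 CPM for Plxnb2. Plxnb3 had 5 to 12 counts per library and 0.0593 ± 0.0151 RPKM. The neuropilins, co-receptors for class 3 semaphorins, were close to each other, with Nrp2 at 24.0 ± 1.30 RPKM and Nrp1 at 21.8 ± 1.56 RPKM.

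Robo1, a Slit receptor of commissural and thalamocortical axons, averaged 58.7 ± 3.45 RPKM and Robo2 22.4 ± 1.42 RPKM. Robo4, the member of vessel endothelium, averaged 3.27 ± 0.378 RPKM, and Robo3, known from commissural neurons before they cross the midline, 1.43 ± 0.333 RPKM. Of their ligands, Slit1 averaged 25.1 ± 1.32 RPKM, Slit2 6.45 ± 0.517 and Slit3 4.24 ± 0.292 RPKM. The netrins were Ntn1 at 15.05 ± 1.55 RPKM, the basement membrane netrin Ntn4 at 4.91 ± 0.323 RPKM and Ntn5 at 0.225 ± 0.0828 RPKM, with 5 to 18 counts per library. Among netrin receptors Dcc averaged 32.8 ± 2.54 RPKM, Unc5a 16.3 ± 1.28 and Unc5b 8.96 ± 0.540 RPKM. Unc5c, at 5.01 ± 0.324 RPKM, was the lowest on this scale, and its libraries overlapped those of Unc5d. Its implied length was 12186 bases, against 5860 for Unc5b and 8933 for Unc5d. Before division by length Unc5c averaged 60.6 CPM in LC1 WT embryos, above Unc5b at 53.9 CPM and Unc5d at 43.7 CPM.

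Between embryos of the same group, the genes varied less than all tested genes. With their low-count members included, they varied more than tested genes in the central range of their CPM. The pooled within-group SD of log2 CPM had a median of 0.106 over the 68 genes, against 0.123 over all tested genes. It was 0.0862 over tested genes in the central range of the 68 genes' CPM, a range that leaves out their low-count members. The steadiest was Epha7, an EphA receptor, with an SD of 0.0342. The 6 with the largest SD were Ntn5 (0.509), Epha1 (0.492), Epha10 (0.450), Robo3 (0.356), Plxnb3 (0.243) and Epha8 (0.226). Epha8 differs from the other 5 in its level, at 4.78 RPKM, with 15.7 CPM in RKI WT embryo A16 and 20.6 to 26.2 CPM in the other 11 embryos.

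Deletion of LC1 left no detected change in any of the 68 genes. With edgeR's quasi-likelihood test and Benjamini-Hochberg adjustment over 16002 genes, 0 of the 68 passed an adjusted p of 0.05 in LC1 KO against LC1 WT, where the share of all genes called was 0%. Neither DESeq2 nor limma-voom called any of them (0 each). By edgeR, 1 of the 68 had an unadjusted p under 0.05, against 2.09% of all genes. That count was 3 without embryo 22, 4 without embryo 26 and 3 without embryo 73, where the share of all genes was 2.49%, 2.77% and 4.42%. It was 0 without embryo 6 or 71, where the share was 1.33% and 2.27%. The 95% interval of the fold change lay within 1.5-fold either way for 63 of the 68, against 79.4% of all genes. The other 5 were Epha1, Epha10, Ntn5, Plxnb3 and Robo3. Intervals narrow as counts rise, and the share over all genes was not matched for level. The median SE was 0.077 over the 68 and 0.097 over all genes. In these bulk libraries, fewer cells of a type and less RNA per cell cannot be told apart.

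**Figure D2:**
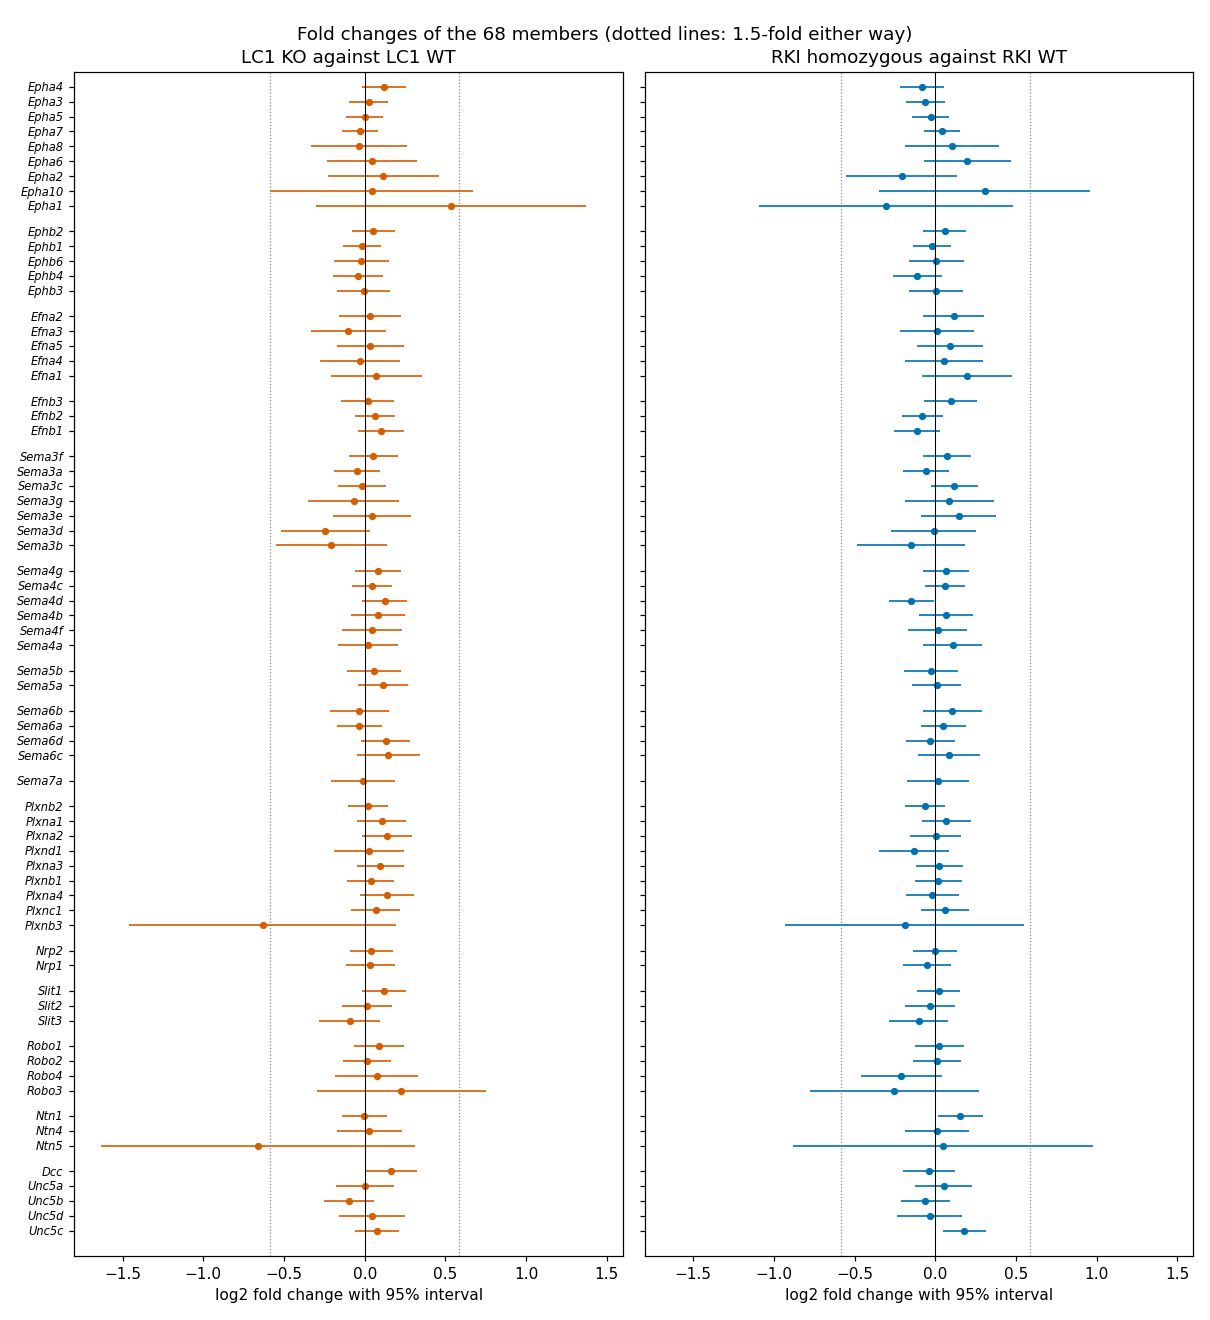
Log2 fold change (point) with its 95% interval (line) for the 68 genes, for LC1 KO against LC1 WT on the left and RKI homozygous against RKI WT on the right, grouped by family and ordered by level within it. In each comparison 63 of 68 intervals lie within the dotted lines at 1.5-fold.

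The gene with the smallest p in the LC1 comparison was Dcc, the netrin receptor of attraction. It had 297, 253 and 282 CPM in LC1 KO embryos 7, 22 and 71, against 218, 258 and 268 CPM in LC1 WT embryos 6, 26 and 73. Embryo 6 was the low one, and the groups overlapped. The log2 fold change was 0.16 (SE 0.08, unadjusted p = 0.0499, adjusted p = 1, edgeR), and it was 0.08 without embryo 6.

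Slit1, a repellent for Robo-bearing axons, had 160, 149 and 150 CPM in LC1 KO embryos, against 136, 146 and 141 CPM in LC1 WT embryos. All LC1 KO values were above all LC1 WT values, with a log2 fold change of 0.12 (SE 0.06, adjusted p = 1, edgeR). Epha4 had 299, 310 and 311 CPM in LC1 KO embryos, against 264, 290 and 292 CPM in LC1 WT embryos, again without overlap, and a log2 fold change of 0.12 (SE 0.07, adjusted p = 1, edgeR) that was 0.07 without embryo 6. Sema4d had 49.6, 49.9 and 47.8 CPM in LC1 KO embryos, against 45.1, 43.3 and 46.9 CPM in LC1 WT embryos, and its groups did not overlap either. Its log2 fold change was 0.12 (SE 0.07, adjusted p = 1, edgeR).

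Plxna2, a signalling receptor for class 3 and class 6 semaphorins, had 631, 597 and 628 CPM in LC1 KO embryos, against 508, 599 and 580 CPM in LC1 WT embryos. Embryo 6 was the low one again, and the log2 fold change of 0.14 (SE 0.07, adjusted p = 1, edgeR) was 0.07 without it. Sema3d, a secreted class 3 semaphorin of low abundance, had 6.14, 6.18 and 4.98 CPM in LC1 KO embryos, against 7.44, 6.88 and 6.25 CPM in LC1 WT embryos. All LC1 KO values lay below all LC1 WT values, by a log2 fold change of -0.24 (SE 0.13, adjusted p = 1, edgeR), which was -0.15 without embryo 71.

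Counted over the 68 genes, the LC1 KO groups lay wholly above LC1 WT for 4 genes (Epha4, Sema4d, Sema4g and Slit1), where 3.36% of all genes did so, and wholly below for Sema3d and Plxnb3, where 3.81% did so. The fitted fold change was above 0 for 47 of the 68, against 48.6% of all genes, with a median log2 fold change of 0.04 over the 68 and -0.0030 over all genes. By family it was above 0 for 8 of 9 plexins, 6 of 6 class 4 semaphorins, 4 of 4 Robos, 3 of 3 B ephrins and 7 of 9 EphA receptors, and for 2 of 7 class 3 semaphorins and 1 of 5 EphB receptors. These members share 6 embryos, so they are not independent of each other. Without embryo 6, or without embryo 7, the count was 38 of 68, where 50% of all genes were above 0 in each case, and the median over the 68 was 0.02 without embryo 6 and 0.01 without embryo 7. Embryo 6 held the lowest CPM of the 12 for 17 of the 68 (25%), against 13.1% of all genes, and embryo 7 held the highest for 13 (19.1%), against 7.81%.

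**Figure D3:**
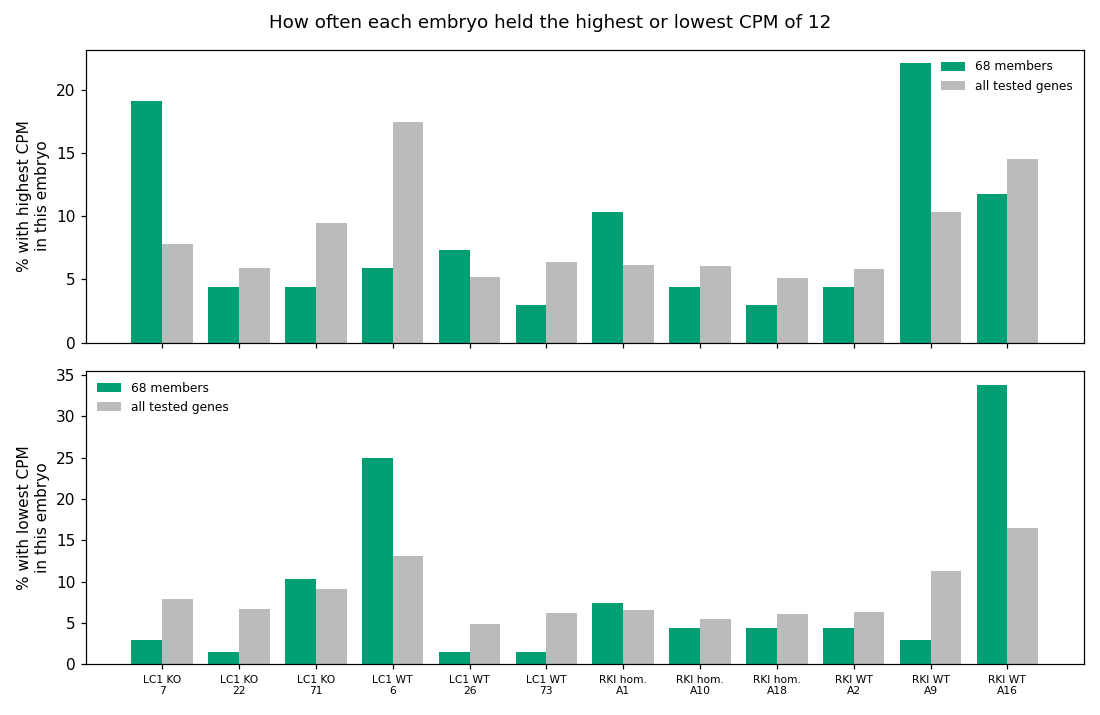
Percent of the 68 genes (green) and of all tested genes (grey) whose highest (top) or lowest (bottom) CPM of 12 was in each embryo. RKI WT embryo A16 held the lowest value for 33.8% of the 68 genes and LC1 WT embryo 6 for 25%.

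Markers of other cell types in the LC1 libraries were also compared. For genes of meninges and mesenchyme, 1 of 12 had a fold change above 0, and their summed level was 1032 to 1333 CPM in LC1 KO embryos, against 1208 to 1446 CPM in LC1 WT embryos. For microglia and macrophage genes, 0 of 11 were above 0, with sums of 146 to 154 CPM in LC1 KO embryos, against 154 to 197 CPM in LC1 WT embryos. Fold changes were above 0 for 8 of 9 pallial and 8 of 9 subpallial neuron genes. The pallial sum was 2265 to 2405 CPM in LC1 KO embryos, against 2083 to 2308 CPM in LC1 WT embryos, and the subpallial sum 650 to 898 CPM in LC1 KO embryos, against 687 to 755 CPM in LC1 WT embryos. They were above 0 for 1 of 14 endothelial and pericyte genes, 1 of 8 choroid plexus genes, 3 of 9 erythroid genes, 5 of 10 radial glia genes, 6 of 10 proliferation genes and 2 of 9 tested midbrain and hindbrain genes. None of these genes passed the test, and apart from Hoxb2 and Hoxb3 none was at 0 in all libraries. Their part in the fold changes above was not tested.

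The human variant in the RKI line likewise gave no call among the 68 genes. In RKI homozygous against RKI WT, 0 of the 68 passed an adjusted p of 0.05 with edgeR's quasi-likelihood test, where 0% of all genes did, and DESeq2 and limma-voom called 0. At an unadjusted p of 0.05 there were 3 of 68, against 1.92% of all genes. That count was 1 without embryo A1, where the share was 1.15%. It was 7 without embryo A9 or without A10, where the share of all genes was 8.17% or 8.24%. The interval lay within 1.5-fold for 63 of the 68, against 80.3% of all genes, with the same 5 genes outside as in the LC1 comparison.

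The smallest p values belonged to a netrin receptor and a netrin. Unc5c, a receptor for repulsion by netrin, had 60.2, 64.7 and 66.4 CPM in RKI homozygous embryos A1, A10 and A18, against 56.01, 58.4 and 54.4 CPM in RKI WT embryos A2, A9 and A16. The groups did not overlap, and the log2 fold change was 0.18 (SE 0.06, unadjusted p = 0.0117, adjusted p = 1, edgeR). Its exons overlap those of another annotated gene on the opposite strand, and whether the counting used strand is not given in the labels. Ntn1, the netrin made by the floor plate and by parts of the forebrain, had 94.2, 92.3 and 88.6 CPM in RKI homozygous embryos, against 86.6, 85.001 and 75.5 CPM in RKI WT embryos. Its groups did not overlap, with A16 the lowest of all 12 embryos, and the log2 fold change was 0.15 (SE 0.07, unadjusted p = 0.0312, adjusted p = 1, edgeR). Without embryo A16 it was 0.10, and without embryos A16 and 6 it was 0.09.

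Genes of midbrain and hindbrain lay in the same direction as Ntn1 and Unc5c without passing the test. Of 18 listed genes 9 passed the filter, 8 of these had a fold change above 0 in RKI homozygous against RKI WT, and their median log2 fold change was 0.68, with 0 called. The summed level of the list was 40.0 to 54.5 CPM in RKI homozygous embryos, against 27.3 to 41.0 CPM in RKI WT embryos, with embryo A16 the lowest. Hoxb2 and Hoxb3 of that list were at 0 in every embryo. The part of these differences in the values of Ntn1 and Unc5c was not tested.

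Sema4d had 45.6, 40.5 and 48.2 CPM in RKI homozygous embryos, against 51.0, 49.5 and 48.0 CPM in RKI WT embryos. The groups overlapped at embryos A18 and A16, and the log2 fold change was -0.15 (SE 0.07, unadjusted p = 0.0376, adjusted p = 1, edgeR). It was -0.08 without embryo A9 or without embryo A10, and either setting rests on the RKI males alone. Robo4, the Robo of vessel endothelium, had 11.8, 12.8 and 12.6 CPM in RKI homozygous embryos, against 12.96, 13.8 and 16.4 CPM in RKI WT embryos. All RKI homozygous values lay below all RKI WT values, by a log2 fold change of -0.21 (SE 0.12, adjusted p = 1, edgeR), which was -0.09 without embryo A16. The summed level of 14 endothelial and pericyte genes was 677 to 734 CPM in RKI homozygous embryos, against 680 to 721 CPM in RKI WT embryos.

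Sema3c, a secreted semaphorin, had 61.7, 57.6 and 55.83 CPM in RKI homozygous embryos, against 55.77, 54.996 and 50.5 CPM in RKI WT embryos. Its groups only just did not overlap, with a log2 fold change of 0.12 (SE 0.07, adjusted p = 1, edgeR). It was 0.07 without embryo A16 and 0.06 without embryo A1. Efnb1 had 133, 128 and 118 CPM in RKI homozygous embryos, against 136, 130 and 144 CPM in RKI WT embryos, with overlap and a log2 fold change of -0.11 (SE 0.07, adjusted p = 1, edgeR), which was -0.05 without embryo A18.

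**Figure D4:**
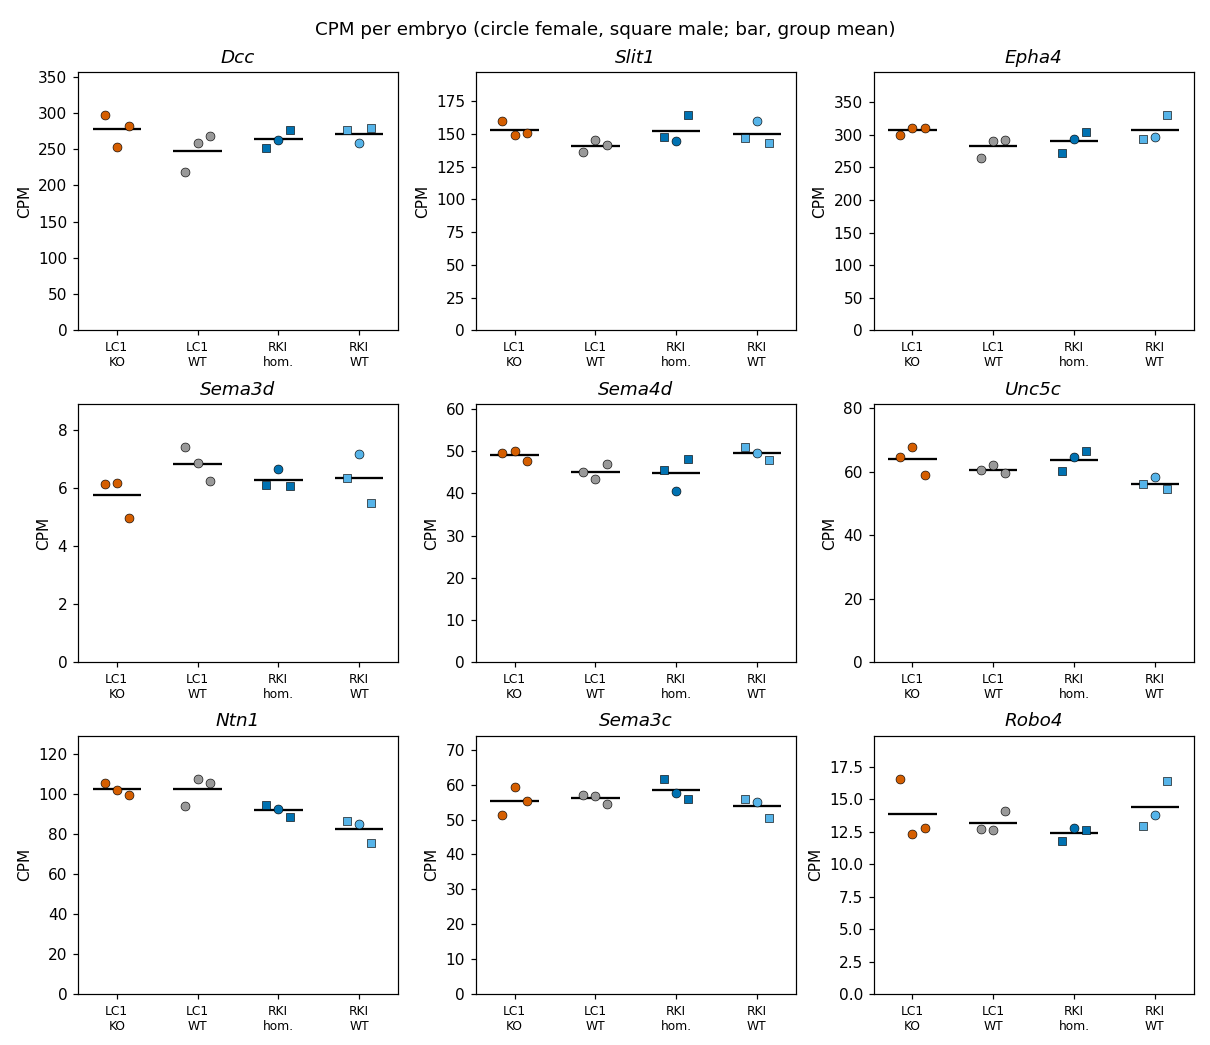
CPM of 9 genes in each embryo by group, in the order LC1 KO, LC1 WT, RKI homozygous, RKI WT; circles are females, squares males and bars group means, and each axis starts at 0. Ntn1 averages 91.7 CPM in RKI homozygous embryos and 82.4 CPM in RKI WT embryos, and 102 CPM in LC1 KO and in LC1 WT embryos.

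Over the 68 genes, the RKI homozygous group lay wholly above RKI WT for 3 (Ntn1, Sema3c and Unc5c), where 2.59% of all genes did so, and wholly below for 4 (Ephb4, Plxnb2, Robo4 and Sema3a), where 3.07% did so. The fold change was above 0 for 40 of the 68, against 50.6% of all genes, and the median log2 fold change was 0.01. It was above 0 for 5 of 5 A ephrins, 5 of 6 class 4 semaphorins and 3 of 3 netrins, and for 0 of 2 neuropilins. Embryo A16 held the lowest CPM of the 12 for 23 of the 68 (33.8%), against 16.5% of all genes. Without A16 the count above 0 was 25 of 68, against 51.2% of all genes, and the median over the 68 was -0.02, so the direction of the median turned. Without A18 the count was 31, against 50.9% of all genes, and the median -0.0099.

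Markers of cell types were compared in the RKI libraries too, and 0 of them were called. Fold changes were above 0 for 0 of 9 pallial and 9 of 9 subpallial neuron genes. The pallial sum was 2195 to 2521 CPM in RKI homozygous embryos, against 2488 to 2711 CPM in RKI WT embryos, and the subpallial sum 724 to 876 CPM in RKI homozygous embryos, against 629 to 809 CPM in RKI WT embryos. Of proliferation genes 0 of 10 were above 0, with sums of 939 to 982 CPM in RKI homozygous embryos, against 860 to 1381 CPM in RKI WT embryos, where embryo A16 was the highest. Of choroid plexus genes 1 of 8 was above 0, with sums of 744 to 770 CPM in RKI homozygous embryos, against 797 to 899 CPM in RKI WT embryos. The counts were 2 of 10 for radial glia, 4 of 14 for endothelium and pericytes, 7 of 12 for meninges and mesenchyme, 7 of 11 for microglia and macrophages and 7 of 9 for erythroid genes. Their part in the fold changes of the 68 genes was not tested.

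Whether the effects of the deletion and of the variant differed was tested as the RKI effect minus the LC1 effect. No gene of the 68 passed the adjusted threshold with edgeR, DESeq2 or limma-voom, where 0% of all genes did with edgeR. At an unadjusted p of 0.05 there were 3 of 68, against 2.42% of all genes. That count was 1 without embryo 71 or without A16, where the share of all genes was 2.27% and 2.5%. Sema4d had the smallest p: its log2 fold change was 0.12 in the LC1 comparison and -0.15 in the RKI comparison, a difference of -0.27 (SE 0.09, unadjusted p = 0.00990, adjusted p = 1, edgeR). For Efnb1 the difference was -0.22 (SE 0.10) and for Epha4 -0.20 (SE 0.09), which in both cases came from a value above 0 in the LC1 comparison and below 0 in the RKI comparison. The next was Dcc at -0.20, which was -0.12 without embryo 6. Efnb2 was at -0.14, and at -0.08 without embryo A9 or without A10, where the RKI effect rests on the males alone. Ntn1 was at 0.16, and at 0.10 without embryo A16.

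The wild-type embryos of both experiments were also compared. In RKI WT against LC1 WT, 0 of the 68 passed the adjusted threshold with edgeR, DESeq2 or limma-voom, where 0.0125% of all genes did with edgeR, and 4 had an unadjusted p under 0.05, against 3.89% of all genes. That count was 10 without embryo A16, 6 without embryo 26 and 1 without embryo A9, where the share of all genes was 7.33%, 3.65% and 4.02%. Ntn1 had the smallest p, with 86.6, 85.001 and 75.5 CPM in RKI WT embryos, against 94.1, 108 and 105 CPM in LC1 WT embryos. The groups did not overlap, and the log2 fold change was -0.29 (SE 0.08, unadjusted p = 0.00258, adjusted p = 1, edgeR). This comparison shares the RKI WT embryos with the RKI comparison above. The summed midbrain and hindbrain list was 27.3 to 41.0 CPM in RKI WT embryos and 55.4 to 66.8 CPM in LC1 WT embryos, and its part in the Ntn1 difference was not tested.

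The genes that followed in order of p were 4 receptors and the ligand Slit2. Plxna3 had 293, 306 and 263 CPM in RKI WT embryos, against 239, 264 and 273 CPM in LC1 WT embryos, with overlap. Its log2 fold change was 0.24 (SE 0.08, adjusted p = 1, edgeR), and 0.15 without the sex term in the fit. Plxna2 had 624, 673 and 624 CPM in RKI WT embryos, against 508, 599 and 580 CPM in LC1 WT embryos, without overlap and with a log2 fold change of 0.21 (SE 0.09, adjusted p = 1, edgeR) that was 0.12 without embryo A9. Nrp1 had a log2 fold change of 0.19 that was 0.02 without embryo A9. Slit2 was at -0.18, and at -0.07 without embryo A9. Unc5d was at 0.22, at 0.05 without embryo A9 and at 0.13 without embryo 6. In RKI WT against LC1 WT the groups did not overlap for 7 genes that were higher and 3 that were lower, where 3.36% and 4.23% of all genes did so. Line, experiment and litter cannot be told apart here. The sex term of the fit rests on the RKI libraries alone, so these fold changes can differ from the CPM given beside them.

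Male against female embryos could be compared only within the RKI groups, with 4 males and 2 females. No gene of the 68 passed with edgeR, DESeq2 or limma-voom, where 0.05% of all genes did with edgeR, and 2 had an unadjusted p under 0.05, against 5.18% of all genes. That count was 9 without embryo A10 and 4 without A18, where the share of all genes was 11.8% and 5.52%. It was 1 without A9 or without A16, where the share was 2.6% and 3.82%. Sema3f, a repellent that acts through Nrp2, had 50.7 and 54.3 CPM in male and 58.3 CPM in female RKI homozygous embryos, and 51.8 and 44.5 CPM in male and 59.6 CPM in female RKI WT embryos. Both females were above all 4 males, while the 6 LC1 embryos, all female, had 50.5 to 56.8 CPM. The fit gave a log2 fold change of -0.23 (SE 0.07, unadjusted p = 0.00667, adjusted p = 0.89, edgeR), which was -0.15 without embryo A9. Sema6b was at -0.20 (SE 0.09), Plxna3 at -0.13, Robo2 at -0.12, Sema4g at -0.12 and Ephb1 at -0.10 on the same scale. Without embryo A9, 1 of the 2 RKI females, Sema6b was at 0.0031, Robo2 at -0.0060, Sema4g at -0.03 and Ephb1 at -0.04. Without embryo A10, the other female, Sema6b was at -0.39, Robo2 at -0.24, Sema4g at -0.21 and Ephb1 at -0.16. Without embryo A16, Sema6b was at -0.12, Robo2 at -0.08 and Sema4g at -0.05.

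Genes that work with these receptors were described from a list of 70 membrane partners and cytoplasmic effectors, all of which passed the filter. None passed the adjusted threshold with edgeR in either comparison. In LC1 KO against LC1 WT, 0 had an unadjusted p under 0.05, against 2.09% of all genes, and 42 of the 70 had a fold change above 0, against 48.6%. Cntn2, an adhesion molecule of early axons, had the smallest p, with 554, 481 and 517 CPM in LC1 KO embryos, against 456, 507 and 432 CPM in LC1 WT embryos, which overlapped (log2 fold change 0.15, SE 0.08, and 0.10 without embryo 7). Fes, a kinase downstream of plexin A, was at -0.24 (SE 0.14) and Rnd1, a plexin-binding GTPase, at -0.16 (SE 0.10), and at -0.10 without embryo 7. In RKI homozygous against RKI WT, 2 had an unadjusted p under 0.05, against 1.92% of all genes, and 48 of the 70 were above 0, against 50.6%. The 2 were Rnd3, an atypical small GTPase, with 122, 119 and 129 CPM in RKI homozygous embryos, against 114, 105 and 115 CPM in RKI WT embryos without overlap (log2 fold change 0.14, SE 0.06), and Flrt3, which binds Unc5 and Robo receptors, at -0.17 (SE 0.08). Flrt3 was at -0.08 without embryo A16. The third was Nck1, an adaptor for Dcc and Robo, at 0.16 (SE 0.08).

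The authors' deposited table of gene comparisons lists all 68 genes with no adjusted p under 0.05 in either experiment. It has an unadjusted p under 0.05 for 7 of the 68 in the LC1 comparison, against 4.32% of the genes listed in the authors' deposited table, and for 2 in the RKI comparison, against 2.76%. The 2 were Unc5c, with a log2 fold change of 0.18 and p = 0.0314 in the authors' deposited table, and Ntn1, with 0.15 and p = 0.0415, once the sign was turned to RKI homozygous minus RKI WT. The smallest p of the 7 was that of Plxna2, with a log2 fold change of 0.145 and p = 0.00635 in the authors' deposited table. For Dcc the authors' deposited table gives 0.17 and p = 0.00827 in LC1 KO against LC1 WT. Epha4, Plxna4, Sema6d, Plxna1 and Slit1 made up the rest of the 7, and all 7 had a fold change above 0. The sign was the same as in the edgeR fit for 67 of the 68 in each comparison. Dcc, Epha4, Plxna2, Plxna4, Sema6d and Slit1 had their lowest CPM of all embryos in LC1 WT embryo 6, and Plxna1 did not. In the edgeR fit of the LC1 comparison, 1 of the 68 had an unadjusted p under 0.05. That count was 0 without embryo 6 and 4 without embryo 26. The authors' comparison was not repeated without embryo 6.

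The deposited estimates per transcript add the splice forms of these genes. They list 301 transcripts of the 68 genes, of which 225 passed the filter. Of the 6 genes with the highest RPKM, Efnb3 and Robo1 have 1 listed transcript each. The leading transcript held 89.7 ± 1.97% of Plxnb2, 81.7 ± 2.72% of Plxna2, 74.1 ± 4.13% of Plxna1 and 55.5 ± 3.36% of Efnb2 (SD, n = 12 each), on the scale of RPKM summed over the gene's transcripts. In the edgeR test 0 member transcripts passed an adjusted p of 0.05 in either comparison, where 0% of all 47772 transcripts did. An unadjusted p under 0.05 was reached by 7 in the LC1 comparison, against 2.97% of all transcripts, and by 5 in the RKI comparison, against 2.45%.

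In the LC1 comparison the smallest p belonged to Epha5-006, a coding transcript of Epha5, with 75.3, 76.5 and 63.5 CPM in LC1 KO embryos, against 50.9, 62.5 and 49.6 CPM in LC1 WT embryos. The groups did not overlap, and the log2 fold change was 0.40 (SE 0.10, adjusted p = 1, edgeR), while the gene as a whole averaged 236 CPM in both groups. CPM of transcripts and of genes come from separate counts, so the transcript's share of the gene cannot be read from them. Efnb1-002, a non-coding transcript, was at 0.98 (SE 0.30) and Sema6d-007 at 0.44 (SE 0.18). Sema4a-202 was listed at 0 in all LC1 WT embryos and in LC1 KO embryo 71, with 1.91 and 6.36 CPM in LC1 KO embryos 7 and 22. In the RKI comparison Plxnb2-001, the leading transcript of Plxnb2, had 182, 183 and 184 CPM in RKI homozygous embryos, against 204, 204 and 206 CPM in RKI WT embryos. The groups did not overlap, with a log2 fold change of -0.16 (SE 0.05, unadjusted p = 0.00725, adjusted p = 1, edgeR). The next were Plxna2-003, a retained intron, at -1.28 (SE 0.46), Sema3c-001 at 0.20 (SE 0.08) and Unc5a-006 at 1.18 (SE 0.50). The groups overlapped for Sema3c-001 and Unc5a-006. Unc5a-006 was low, with 2.29, 2.26 and 3.66 CPM in RKI homozygous embryos, against 1.32, 0.40 and 2.61 CPM in RKI WT embryos A2, A9 and A16.

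Several of the receptors and semaphorins were present as pairs of coding isoforms that differ by a single short internal segment, and these are shown because the segment is the whole difference between the proteins. In 8 of the 68 genes there were 11 such pairs, chosen after the values were seen, in which each isoform held at least 10% of the gene's RPKM and the segment was at most 100 bases long. The capitals mark the segment that the longer isoform has and the shorter lacks, and the lower-case letters are the 12 coding bases on either side, 5′ to 3′ on the coding strand from GENCODE M21 transcripts of build GRCm38.
Ephb2-003 against Ephb2-001, chr4:136672508-136672510, minus strand: cgtatgtaacagAAGacgggggtttga
Ephb2-002 against Ephb2-001, chr4:136675531-136675533, minus strand: tactatgagaagCAGgagctcagtgag
Nrp2-002 against Nrp2-001, chr1:62812534-62812584, plus strand: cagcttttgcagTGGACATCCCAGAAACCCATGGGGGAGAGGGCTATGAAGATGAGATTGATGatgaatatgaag
Nrp2-005 against Nrp2-004, chr1:62786302-62786316, plus strand: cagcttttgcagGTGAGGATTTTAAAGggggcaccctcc
Sema6d-008 against Sema6d-007, chr2:124660705-124660761, plus strand: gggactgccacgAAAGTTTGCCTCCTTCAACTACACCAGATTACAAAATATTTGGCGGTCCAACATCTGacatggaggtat

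The 2 segments of Ephb2, a receptor for B ephrins, are 3 bases long each and lie at different exon junctions. The isoform with AAG made up 60.2 ± 2.95% of its pair and the isoform with CAG 46.1 ± 2.02% of its pair (SD, n = 12), with every library between 55.1% and 66.7% and between 42.6% and 48.4%. The Nrp2 segments of 51 and 15 bases follow the same 12 bases and begin at coding base 2426 in both pairs, and lead into different ends of the protein. The isoform with 51 further bases averaged 44.8 ± 4.17% of its pair and the one with 15 44.0 ± 7.19%. The groups overlapped in these pairs. The first Nrp2 pair averaged 41.9% in LC1 KO and 45.4% in LC1 WT embryos, and 45.8% in RKI homozygous and 45.97% in RKI WT embryos. The second averaged 44.3% in LC1 KO and 43.1% in LC1 WT embryos, and 46.9% in RKI homozygous and 41.7% in RKI WT embryos.

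In Sema6d, a ligand of plexin A1, the isoform with the 57 further bases made up 29.4, 35.2 and 36.7% of the pair in LC1 KO embryos, against 50.4, 37.4 and 39.6% in LC1 WT embryos. All LC1 KO values lay below all LC1 WT values, by a margin of less than 1 percentage point between embryos 71 and 26. The means were 33.7 ± 3.88% in LC1 KO embryos and 42.5 ± 6.97% in LC1 WT embryos, and 45.2 ± 2.01% in RKI homozygous embryos and 46.6 ± 3.18% in RKI WT embryos (SD, n = 3 each). Since the pair was chosen after its values were seen, no test is given, and 3 against 3 embryos could not go below p = 0.10 in an exact permutation test. The further pairs were in Dcc, Efna5, Ephb4, Sema5b and Sema6c, where the longer isoform averaged between 37.2% and 67.96% of the pair. In Ephb4 the estimates ran from 0% to 60.1%, and in Efna5 from 50.5% to 100%, so these splits were poorly fixed between embryos.

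**Figure D5:**
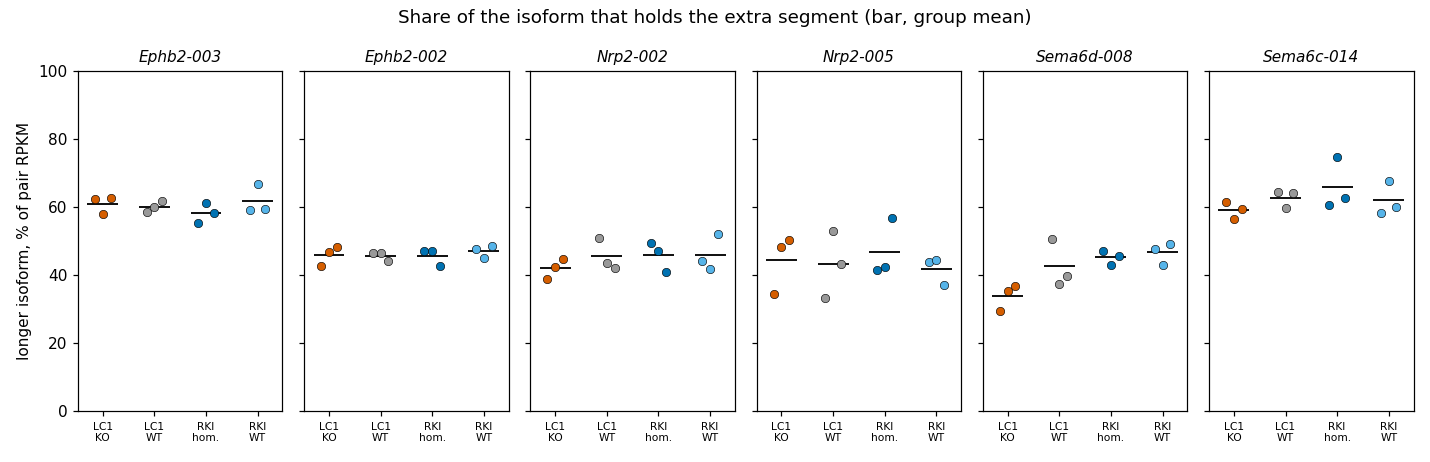
Percent of the pair's RPKM held by the longer isoform, for 6 isoform pairs named by that isoform; points are embryos, bars are means of 3, and groups run from LC1 KO and LC1 WT to RKI homozygous and RKI WT. Sema6d-008 averages 33.7% in LC1 KO embryos and 42.5% in LC1 WT embryos, and the Ephb2 shares lie between 42.6% and 66.7% in all embryos.

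The start regions of these genes were rich in G and C. Promoter windows of 250 bases before to 50 after the annotated start, from RefSeq on build GRCm38, were found for 59 of the 68 genes in 75 windows. Their median GC content was 64.3%, against 52.7% over all 32851 windows. The motif CCGCCC, a GC box, was present on either strand in 70.7% of the windows, against 35.7% of all windows. TATAAA was present in 2.67%, in Efnb2 and Slit2, against 13.6% of all. The octamer ATGCAAAT, known as a binding motif of POU factors, was in 0 of the 75 windows and in 1.74% of all windows. At so low a share, 75 windows are too few to show a lack of it.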

How the data were processed

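RNA from 12 embryonic mouse brains was sequenced with an oligo-dT library kit, per the labels' protocol. STAR 2.0.4b, featureCounts 1.4.5 of Subread, limma and edgeR are listed, with no role stated, in the submitters' processing notes; for genome build, annotation, strand setting and transcript estimator the sources used here give nothing. The authors deposited whole-number counts per gene, of which 574 repeated rows were dropped. They also deposited RPKM per gene and transcript, and estimated counts per transcript, which were rounded for testing. The deposited RPKM followed counts over library totals to within 0.0126%. The authors' comparison tables hold log2 fold changes, p-values and a score, with RKI given as wild type minus homozygous.

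Counts were tested in R 4.3.3 with edgeR 4.0.16 (quasi-likelihood, TMM, filterByExpr by group, robust), in 1 fit of 4 group means and sex over 12 libraries with 7 residual degrees of freedom and a common biological coefficient of variation of 6.94%. Adjustment was Benjamini-Hochberg at 0.05 over 16002 genes, and intervals are at 95%. Alternatives were DESeq2 1.42.0, limma-voom (limma 3.58.1), other scalings, no filter, no sex term, fewer libraries and leaving out each embryo. CPM are TMM-scaled. The tests were tried on simulated counts. P-values rest on the spread between embryos. Replicates were compared by chi-square and no pair agreed within sampling noise (smallest chi-square per degree of freedom 3.05).

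Named are the 3 highest and the lowest gene per family (all in families of 4 or fewer), the 6 smallest p per comparison, the 6 largest SDs and 4 transcripts per comparison. The members and lists were chosen with earlier results of these data known. Exons of 17 members overlap another gene, 3 on the same strand. The values of the marker lists stand beside the results.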

Additional observations from a re-analysis of the deposited data

How the results depend on the processing

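No result for the 68 genes crossed the adjusted threshold under any setting that was run. The 5 counts of called genes stayed at 0 under RLE and upper-quartile scaling, DESeq2, limma-voom and no filter, as well as without the sex term and in the 6 libraries of 1 experiment where these apply, and without each embryo of the groups compared. The transcript counts also stayed at 0 under their settings. With no filter, edgeR called 4 of all 27458 genes in the LC1 comparison and 26 in the RKI comparison. It called 17 for the RKI effect minus the LC1 effect, 28 for RKI WT against LC1 WT and 45 for male against female. The number of genes at 1 RPKM or more stayed within 1.5 times of 62. Leaving out embryos A16 and 6 together was chosen after seeing the data and also gave 0 called. The named log2 fold changes had the smallest p in these same data, and the repeats shared most of their libraries. A turn of direction was therefore unlikely from the start. Of 420 repeats of the named log2 fold changes, 419 kept their direction. The exception was Sema6b in male against female embryos, which was 0.0031 without RKI WT replicate A9 and -0.39 without RKI homozygous replicate A10, the extremes over all embryos left out, against -0.20 with all. No paired analysis was possible because the labels give the groups no shared replicate numbers and name no litters. Depth limits Plxnb3, Ntn5 and Epha1, with at most 31 counts per library, and their intervals reached beyond 1.5-fold.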
